A study of Rattus norvegicus with 6 samples.

Results

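The members described are the potassium channel genes of the rat: all CodeLink probes whose RefSeq accession belongs to a gene with a symbol starting Kcn. They numbered 79 probes for 60 genes, out of 33849 probes on the array and out of 4675 probes for 4013 genes that could be named through RefSeq. The genes fall into 17 subfamilies by the letters of their symbol. The study measured RNA from the substantia nigra pars compacta, the midbrain nucleus whose dopamine neurons are lost in Parkinson's disease, in male Sprague Dawley rats aged 5 months. Rotenone, a plant-derived pesticide that blocks complex I of the mitochondrial respiratory chain, was delivered at 0.5 mg/kg/day for 28 days from an osmotic pump under the skin. The 3 rotenone rats (numbered 16, 13 and 9) were compared with 3 solvent rats (11, 7 and 1). The solvent rats carried the same kind of pump, filled with dimethylsulfoxide and polyethylene glycol with the dispersing agent Pluronic F-127, so surgery, pump and solvent were common to both groups. The tissue was cut out by laser, and the RNA of each rat was amplified, labelled with biotin and hybridised to 1 one-colour array. The dose was set from average body weight at implantation, so it was not tailored to each animal over time. A captured nucleus holds dopamine neurons, other neurons and glia together, and in such bulk RNA fewer cells of a type and less RNA per cell cannot be told apart.

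Potassium channels let potassium ions leave the cell, which brings the membrane back towards rest after an action potential and sets how readily a neuron fires again. Most are built from pore-forming subunits, either voltage-gated (Kcna to Kcnd, Kcnh, Kcnq), calcium-activated (Kcnma, Kcnn), inward rectifying (Kcnj) or of the two-pore leak type (Kcnk), together with auxiliary subunits (Kcnab, Kcne, Kcnip, Kcnmb). In dopamine neurons of the substantia nigra, A-type channels containing Kcnd3 and small-conductance calcium-activated channels containing Kcnn3 are known to shape pacemaker firing, and the ATP-sensitive channel, with its Kcnj11 pore, links firing to the energy state of the cell.

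The Kcnd pair is shown first because it was the only subfamily with more than 1 measured gene in which every measured probe had a lower mean with rotenone, a choice made after the values were seen. The sequences are the 250 bases before the annotated start of each gene in RefSeq's rat build GRCr8, on the plus strand, and capitals mark a GC box, the letters GGGCGG read on either strand. Kcnd2 (Kv4.2) starts after chr4:50742235-50742484 and Kcnd3 (Kv4.3) after chr2:195626066-195626315.
Kcnd2: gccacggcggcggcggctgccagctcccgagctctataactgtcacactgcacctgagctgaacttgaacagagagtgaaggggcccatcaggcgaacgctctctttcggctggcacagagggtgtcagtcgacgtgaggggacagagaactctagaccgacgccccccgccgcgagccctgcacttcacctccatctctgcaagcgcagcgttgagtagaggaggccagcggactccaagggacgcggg
Kcnd3: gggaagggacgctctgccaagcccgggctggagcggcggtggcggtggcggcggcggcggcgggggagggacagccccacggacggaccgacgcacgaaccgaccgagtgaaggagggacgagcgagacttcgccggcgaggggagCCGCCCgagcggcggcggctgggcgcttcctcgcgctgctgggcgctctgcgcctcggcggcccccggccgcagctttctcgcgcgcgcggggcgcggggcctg
The Kcnd3 window held 1 GC box, whose first base lies at -104 from the start, and 43 CpG dinucleotides at 79.6% G and C. The Kcnd2 window held none of these letters, with 20 CpG dinucleotides at 64% G and C. Over all 33469 promoters of the table, the median was 5 CpG dinucleotides and 51.2% G and C, and 30.5% held a GC box. Of the 39 members with a promoter in the table, 8 of 14 whose gene was measured in the tissue and 13 of 25 others held a GC box. A TATA box, read here as TATAAA on either strand, was in 12.9% of all promoters, in 0 of the 14 and in 2 of the 25. For both boxes the members were counted by gene, over all promoters of a gene, and the shares of all promoters by promoter. The units therefore differ. A match of letters is a description and not a shown binding site.

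One array stood apart from the others. Rotenone rat 16 correlated at a mean of 0.931 with the other arrays, against 0.956 to 0.964 for the remaining 5, and lay at 46.8 on the first principal component, against -18.6 to -0.48. Its median net intensity, the spot mean minus the local background, was 11.7 against 13.9 to 16.6, and 44.2% of its probes were above background against 48.6% to 51.5%. Differences of members that moved by over 1.5 times when it was left out are therefore given with and without it. By their brightest tested probe, the dopamine neuron markers Th, Slc6a3, Ddc, Drd2, Ret, Slc18a2 and Sncg were above background on all 6 arrays. Nr4a2 was so on 5, Foxa2 on 4 and Pitx3 on 3. Glial markers such as Gfap and Mbp were above background on all 6 arrays and Ugt8 on 5. The glial markers Aqp4, Slc1a2, Cldn11, Cx3cr1 and Ptprc were so on fewer than 3. No probe of the 16708 tested across the array (0%) passed a Benjamini-Hochberg adjusted p of 0.05 in limma, and 825 (4.94%) had an unadjusted p below 0.05.

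Most potassium channel probes gave little signal in this tissue. A probe was called above background where the scanner marked it neither near background nor masked, and it was measured, meaning tested, where that held on at least 3 of the 6 arrays. That was so for 29 of the 79 probes (36.7%), from 25 of the 60 genes, against 49.4% of all probes and 52.8% of the probes named through RefSeq. On all 6 arrays 19 probes (24.1%) were above background, against 36.8% of all probes, and on no array 34 (43%), against 34.6%. The remaining probes were above background on 3 to 5 arrays (10 probes) or on 1 or 2 (16 probes). In each rat the share of channel probes above background was below that of all probes. In solvent rats 11, 7 and 1, 27, 31 and 34 of the 79 probes were above background, or 34.2%, 39.2% and 43.0%, where all probes gave 49.0%, 51.2% and 51.5%. In rotenone rats 16, 13 and 9 the counts were 26, 30 and 31 of 79, or 32.9%, 38.0% and 39.2%, where all probes gave 44.2%, 49.1% and 48.6%. The counts of the 2 groups overlapped. A probe near background sets only a bound on its RNA and does not show that the gene is silent.

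**Figure D1:**
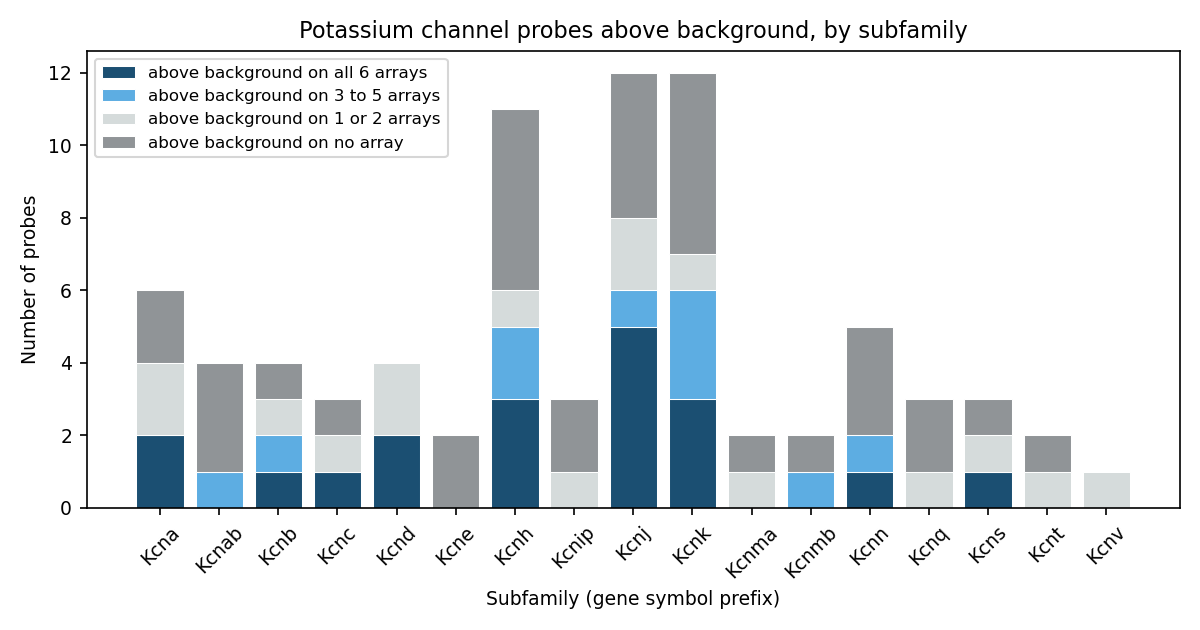
Number of potassium channel probes per subfamily (bars, gene symbol prefix on the horizontal axis), split by how many of the 6 arrays showed the probe above background. Both Kcnd genes had a probe above background on all 6 arrays, while Kcne and Kcnip had no measured probe; Kcnh, Kcnj and Kcnk held 17 of the 29 measured probes.

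Which members were seen differed by subfamily. The A-type Kcnd genes were both measured, as were 2 of 5 Kcna genes, 1 of 2 Kcnc genes, 5 of 8 Kcnh genes, 4 of 10 Kcnj genes, 5 of 9 Kcnk genes, 2 of 4 Kcnn genes and 1 of 3 Kcns genes. Among auxiliary subunits, 1 of 3 Kcnab genes and the 1 Kcnmb gene were measured, and 0 of 2 Kcne and 0 of 3 Kcnip genes. No probe of Kcnma, Kcnq, Kcnt or Kcnv was measured. Several members that are well known in nigral dopamine neurons were thus below the limit for testing. Kcnj6 (GIRK2), the G-protein-gated pore through which D2 autoreceptors slow firing, was above background on no array: its net intensity was 11.4, 12.7 and 14.1 in solvent rats 11, 7 and 1 and 9.03, 6.93 and 6.97 in rotenone rats 16, 13 and 9. Over all Kcn probes above background on no array, Kcnj6 among them, net intensity ran from -5.85 to 18.4 (median 5.40). The 6 Kcnj6 readings lay above that median. Normalized, they were 6.07, 6.08 and 6.10 with solvent against 6.05, 5.97 and 5.98 with rotenone. By another limit, the mean plus 2 SD of the negative control spots, Kcnj6 was above background on 3 arrays. It would count there among the members whose groups do not overlap, 4 of 30, where 10.5% of all tested probes did not overlap. That limit, on the spot mean, was 52.2, 51.9 and 50.6 in solvent rats 11, 7 and 1. In rotenone rats 16, 13 and 9 it was 117.8, 296.9 and 62.3. It was thus easier to pass in the solvent rats, and this lack of overlap is not read as a result. The scanner marked all 6 Kcnj6 spots as near background, so the readings bound the RNA and were given no fold. Kcnip3, a calcium-binding subunit of Kcnd channels, read 0.214 to 9.07 on the same scale and was above background on no array either, and Kcnip1 was above it on 1 array. Kcnma1, the pore of the large-conductance calcium-activated channel, was above background on at most 2 arrays with either probe, and both probes of Kcnq3, a subunit of the M-current channel, on none. Kcnj8, Kcnj16 and Kcnip4 had no probe named through the RefSeq table used and were not analysed here.

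The other genes not measured included Kcna3, Kcna4 and Kcna5, Kcnab1 and Kcnab3, Kcnc2, Kcne1 and Kcne2, Kcnh1, Kcnh5 and Kcnh7, Kcnip2, Kcnj1, Kcnj2, Kcnj9, Kcnj13 and Kcnj14, Kcnk9, Kcnk10, Kcnk13 and Kcnk15, Kcnn1 and Kcnn2, Kcnq1, Kcns1 and Kcns2, Kcnt1 and Kcnt2, and Kcnv1. Of these, Kcnh7, Kcnq1 and Kcnv1 came nearest to the limit, each above background on 2 arrays. Counting Kcnma1, Kcnip1 and the rest, 13 genes were above background on 1 or 2 arrays only and 22 on none.

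Across the 29 measured probes the difference between rotenone and solvent was small. Values are given as normalized log2 intensity, on which a difference of 1 is a 2-fold change of the offset-corrected signal. An offset of 50 was added to each spot and draws differences towards 0. On this scale the Kcn probes above background on no array read 5.69 to 6.24 (median 5.93). Some measured probes, such as those of Kcnh3, Kcnn3, Kcnn4, Kcnab2 and Kcnmb1, had readings inside that range and lie close to the floor. The differences ran from -0.60 to 0.46 with a median of 0.08, beside a median of 0.01 over all tested probes, and 28 of 29 were under 0.5 in size, where 95.6% of all tested probes were. By mean, 19 of 29 probes (65.5%) were higher with rotenone, where 51.6% of all tested probes were. That split depended on the scaling: with the arrays set to equal medians instead of equal distributions, 14 of the 29 were higher and 15 lower, and 38.1% of all tested probes were higher. No member passed the adjusted threshold, with adjusted p values from limma of 0.895 to 0.999. An unadjusted p below 0.05 was met by 2 of the 29 (6.90%), both lower with rotenone, where 2.95% of all tested probes met it as lower and 1.99% as higher. Without rotenone rat 16 and without solvent rat 1 the count was 0, where 3.33% and 5.56% of all tested probes met it. Without rotenone rat 13 it was 5, where the share of all tested probes was also higher, 8.20%. The 3 rats of each group did not overlap for 3 of 29 probes (10.3%), where 9.97% of all tested probes did not overlap. These shares are near those of the whole array.

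**Figure D2:**
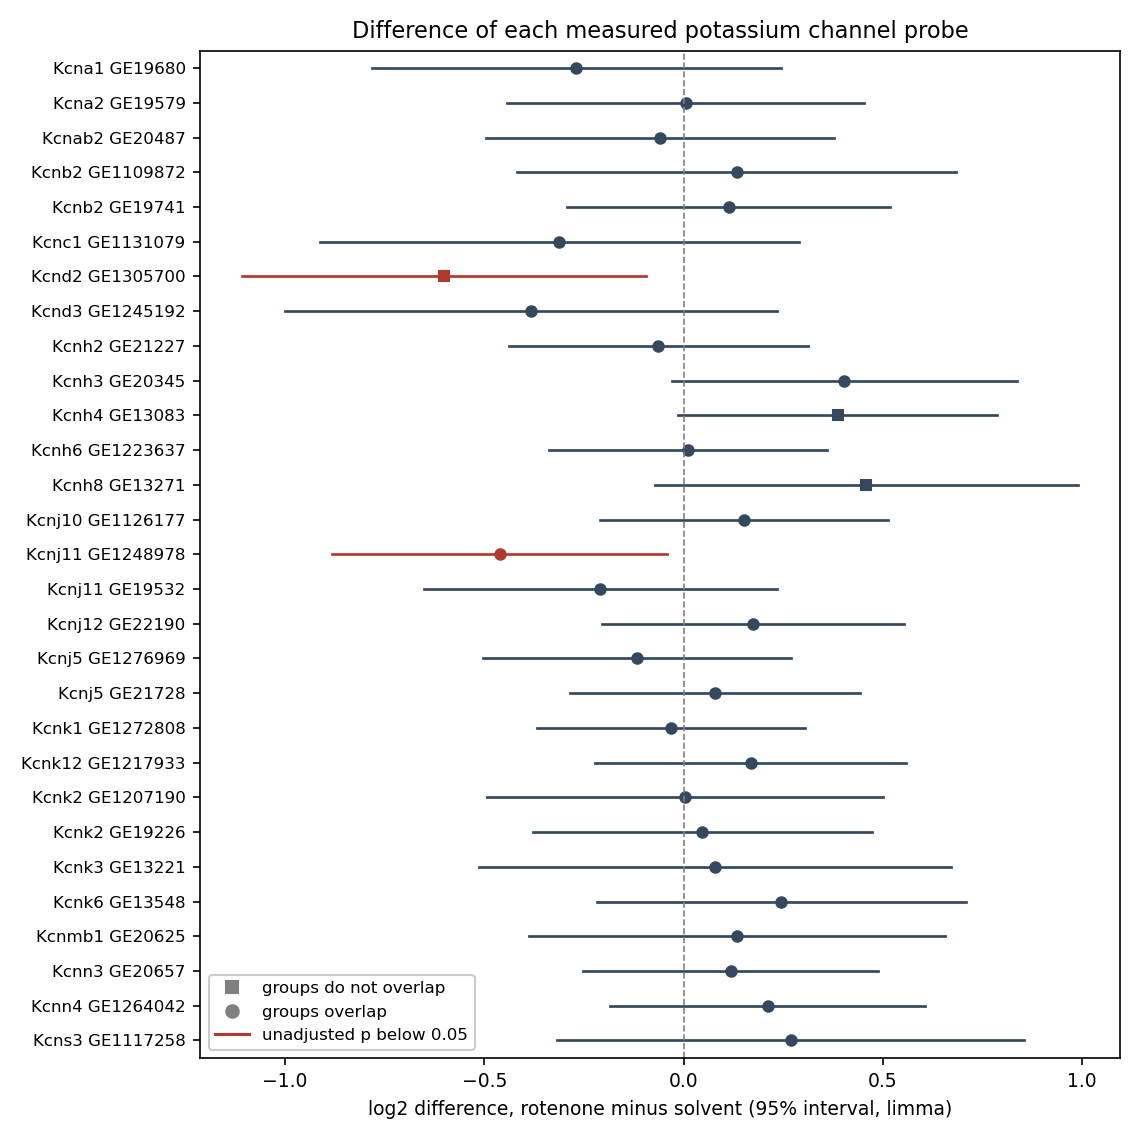
Difference of each of the 29 measured probes (rows, gene and probe), rotenone minus solvent, in log2 units on the horizontal axis; points are limma estimates over 3 rats per group, bars are 95% intervals, and squares mark probes whose groups do not overlap. The intervals of 27 probes include 0, and those of Kcnd2 and of Kcnj11 probe GE1248978 (red, unadjusted p below 0.05) lie below it.

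The precision of 3 rats against 3 limits what could be seen. The standard error of the difference ran from 0.15 to 0.28 (median 0.19), and the 95% interval reached 0.34 to 0.62 to either side (median 0.43). For 27 of 29 probes the interval lay within -1 to 1. A p value that misses the threshold does not show that a channel gene was the same in both groups.

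Kcnd2 and Kcnd3 form the pores of the fast-inactivating A-type current. Kcnd2 (probe GE1305700) read 7.77, 7.97 and 8.30 in solvent rats 11, 7 and 1 and 6.99, 7.48 and 7.77 in rotenone rats 16, 13 and 9. Rotenone rats 16 and 13 were below every solvent rat, while rotenone rat 9 equalled solvent rat 11 to 2 decimals. The groups count as not overlapping only by the decimals beyond those, so their separation for Kcnd2 is a near tie. Its mean was 8.01 ± 0.26 (SD, n = 3) with solvent and 7.41 ± 0.40 (SD, n = 3) with rotenone. The difference of -0.60 (SE 0.23, 95% interval -1.11 to -0.09) had a limma p of 0.0249 and an adjusted p of 0.895. Rotenone rat 16 was the lowest, and without it the difference was -0.39. With the offset lowered to 16 it was -0.73 (limma p 0.0318), and with equal medians -0.71 (limma p 0.0235). Plain background subtraction gave -0.85 (limma p 0.0596) and array weights -0.41 (limma p 0.0620). The limma p was 0.0908 without rotenone rat 16 and 0.0963 without solvent rat 1. The unadjusted p of Kcnd2 thus did not stay below 0.05 in every alternative.

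Kcnd3 (probe GE1245192) read 9.79, 9.26 and 10.27 in the solvent rats, in the same order of rats, and 9.47, 8.95 and 9.74 in the rotenone rats. Those groups overlapped: 2 of the 3 rotenone rats were above solvent rat 7. The difference was -0.38 (SE 0.28, limma p 0.196), and without rotenone rat 16 it was -0.42. Leaving out each rat in turn gave -0.64 to -0.14 for Kcnd3 and -0.78 to -0.39 for Kcnd2.

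Markers shared by all neurons also had lower means with rotenone. Of the 14 in that list, 8 were tested and all 8 had lower means with rotenone, at a median difference of -0.28 with 0 passing the adjusted threshold. Snap25 was among those not tested. The tested markers had a median deviation from the mean of 6 arrays of 0.35, 0.12 and -0.05 in solvent rats 11, 7 and 1. In rotenone rats 16, 13 and 9 it was -0.54, -0.01 and 0.09. By this median rotenone rat 16 was the lowest, and rotenone rats 13 and 9 lay above solvent rat 1. Their summed scaled intensity, where 1 is about the median of an array, was 400.2 to 492 in the solvent rats and 282 to 415 in the rotenone rats. Of 9 tested oligodendrocyte markers, 7 were likewise lower and 2 higher, at a median of -0.21. The dopamine neuron list had 10 of 11 markers tested, 4 higher and 6 lower, at a median of -0.18. The part of these lists in the Kcnd values was not tested.

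The Kcna, Kcnb and Kcnc genes carry delayed rectifier and low-threshold currents. Kcna1 (Kv1.1, probe GE19680), an axonal low-threshold channel, read 8.58, 8.57 and 9.0 with solvent and 8.00, 8.51 and 8.84 with rotenone. Kcna2 (Kv1.2), its frequent partner in one channel, read 10.59, 10.69 and 10.74 with solvent and 11.10, 10.52 and 10.42 with rotenone. Rotenone rat 16 was thus the lowest rat for Kcna1 and the highest for Kcna2. The differences were -0.27 (SE 0.23, limma p 0.271) and 0.01 (SE 0.20, limma p 0.976), and without rat 16 they were -0.045 and -0.20. With each rat left out in turn, Kcna1 ran from -0.46 to -0.045. Kcnc1 (Kv3.1), the channel of fast-spiking neurons, read 8.24, 7.94 and 8.20 with solvent and 7.22, 8.42 and 7.81 with rotenone. Its groups overlapped widely, since rotenone rat 13 was the highest of the 6 and rat 16 the lowest. The difference of -0.31 (SE 0.27, limma p 0.275) was -0.015 without rat 16 and -0.62 (limma p 0.0224) without rat 13, so each of these rats decided its size.

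Kcnb2 (Kv2.2), a delayed rectifier, was measured by 2 probes. GE19741 read 7.26, 6.69 and 6.88 with solvent and 7.06, 7.09 and 7.02 with rotenone, and GE1109872 read 5.83, 6.68 and 6.46 and then 6.12, 6.76 and 6.49. Both differences were small, 0.11 and 0.13, yet the probes ordered the rats differently: solvent rat 11 was the highest by the first and the lowest by the second. Kcns3 (Kv9.3), a subunit that opens no channel on its own and joins Kv2 channels, read 8.53, 8.94 and 9.16 with solvent and 9.68, 8.68 and 9.08 with rotenone. The difference of 0.27 (SE 0.26, limma p 0.331) was 0.00 without rotenone rat 16, 0.51 without rotenone rat 13 and 0.096 without solvent rat 11. Kcnab2, the beta subunit that assembles with Kcna channels, was above background in 3 solvent rats and 1 rotenone rat, with 6.21, 6.18 and 6.21 against 5.94, 6.55 and 5.93. Its difference was -0.06, and rotenone rat 13 was the highest of the 6.

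**Figure D3:**
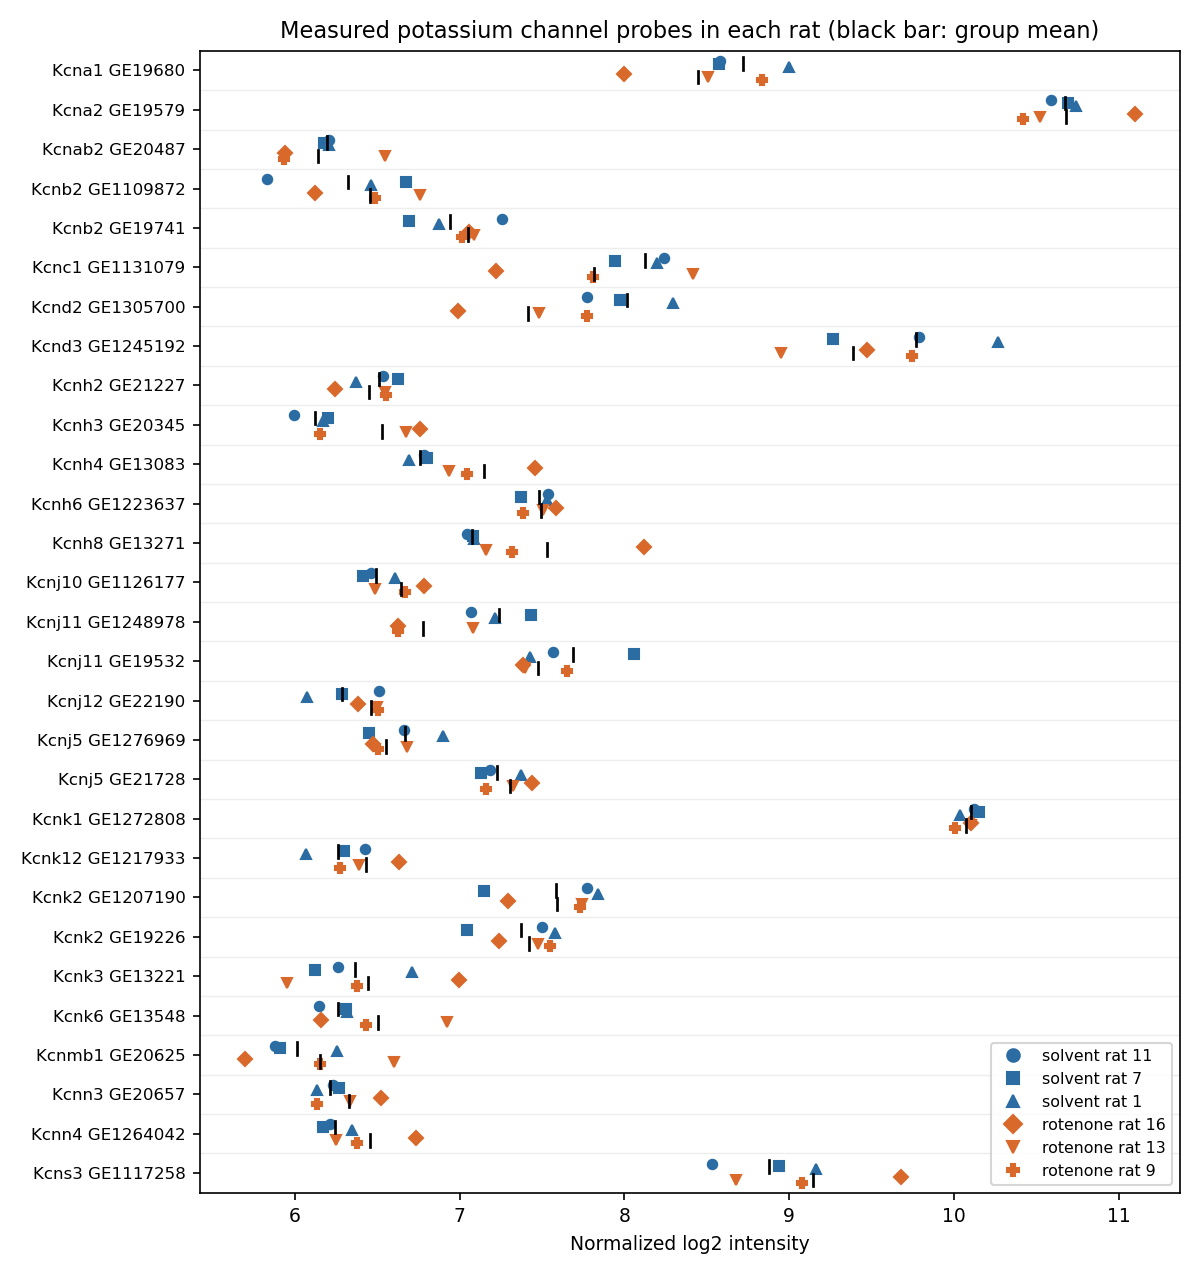
Normalized log2 intensity (horizontal axis) of each measured probe in each of the 6 rats; blue symbols are solvent rats, orange symbols rotenone rats and black bars the means of 3 rats. Kcnd2 is lower in rotenone rats 16 and 13 and ties solvent rat 11 in rat 9, Kcnh4 and Kcnh8 are higher in all 3, and rotenone rat 16 (diamond) is the highest of the 6 for 12 probes. Heights on different rows are different probes and are not to be compared.

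The Kcnh family holds the ether-a-go-go channels, of which 5 genes were measured, 4 with a higher mean in the rotenone rats (median difference 0.39). They divide by sequence kinship into the Elk genes Kcnh3, Kcnh4 and Kcnh8, the Erg genes Kcnh2, Kcnh6 and Kcnh7, and the Eag genes Kcnh1 and Kcnh5, neither of which was measured. Kcnh4 (Kv12.3) read 6.78, 6.80 and 6.69 with solvent and 7.46, 6.94 and 7.04 with rotenone. Kcnh8 (Kv12.1) read 7.05, 7.08 and 7.09 with solvent and 8.12, 7.16 and 7.32 with rotenone. In both, every rotenone rat lay above every solvent rat and rat 16 was by far the highest. Kcnh3 (Kv12.2, probe GE20345), which dampens excitability in forebrain neurons, read 6.0, 6.20 and 6.17 with solvent and 6.76, 6.67 and 6.15 with rotenone. For Kcnh3 the groups overlapped, because rotenone rat 9 read as the solvent rats did. Those readings lay within 5.69 to 6.24, the range of Kcn probes above background on no array. Solvent rat 11 was marked near background for this probe. The other Kcnh3 probe, GE21268, was above background on no array, so the Kcnh3 difference rests on 1 probe close to the floor.

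The differences of the Elk genes were 0.40 for Kcnh3 (SE 0.19, limma p 0.0646), 0.39 for Kcnh4 (SE 0.18, limma p 0.0571) and 0.46 for Kcnh8 (SE 0.24, limma p 0.0830), each at an adjusted p of 0.895. Without rotenone rat 16 they were 0.30, 0.24 and 0.17, and leaving out each rat in turn gave 0.30 to 0.59, 0.24 to 0.49 and 0.17 to 0.65. The Erg gene Kcnh2, best known from the heart's repolarizing current, read 6.54, 6.63 and 6.37 with solvent and 6.24, 6.55 and 6.56 with rotenone. Kcnh6 (probe GE1223637) read 7.54, 7.38 and 7.53 with solvent and 7.58, 7.51 and 7.39 with rotenone. Neither Erg gene separated the groups, with differences of -0.06 and 0.01. The Elk and Erg genes were set side by side after their values were seen, and their difference was not tested.

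Among inward rectifiers, Kcnj11 (Kir6.2), the pore of the ATP-sensitive channel, was measured by 2 probes on all 6 arrays. Probe GE1248978 read 7.07, 7.43 and 7.22 with solvent and 6.63, 7.08 and 6.63 with rotenone. The groups met at one point, since rotenone rat 13 was just above solvent rat 11. The mean was 7.24 ± 0.18 (SD, n = 3) with solvent and 6.78 ± 0.26 (SD, n = 3) with rotenone, a difference of -0.46 (SE 0.19, 95% interval -0.88 to -0.04, limma p 0.0344, adjusted p 0.895). Without rotenone rat 16 it was -0.39, and leaving out each rat in turn gave -0.61 to -0.36. Probe GE19532 read 7.57, 8.06 and 7.43 with solvent and 7.39, 7.39 and 7.65 with rotenone. By this probe solvent rat 7 was the highest and the other rats lay close together, with a difference of -0.21 (SE 0.20, limma p 0.319). Without solvent rat 7 that difference was -0.021, so its size rested on that rat. Of the 2 probes, GE1248978 met an unadjusted p below 0.05 and GE19532 did not.

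The sulfonylurea receptors complete this channel around the Kcnj11 pore. Abcc8 (SUR1), the form known from dopamine neurons and pancreatic beta cells, was above background on 1 array only and was not tested. Abcc9 (SUR2), known from muscle and vessels, was above background on all 6 arrays, with 7.0, 6.79 and 7.35 with solvent and 6.86, 6.58 and 7.08 with rotenone. The groups overlapped, at a difference of -0.21 (SE 0.20, limma p 0.333).

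The other measured inward rectifiers differed less. Kcnj10 (Kir4.1), the astrocyte channel that takes up potassium released by neurons, read 6.46, 6.41 and 6.61 with solvent and 6.79, 6.49 and 6.67 with rotenone, a difference of 0.15. The astrocyte list had 7 of 10 markers tested, 4 higher and 3 lower, at a median difference of 0.02. Kcnj12 (Kir2.2), which holds the resting potential, read 6.51, 6.28 and 6.07 with solvent and 6.39, 6.50 and 6.50 with rotenone, a difference of 0.17. Kcnj5 (GIRK4), a G-protein-gated subunit, read 7.19, 7.13 and 7.37 with solvent and 7.44, 7.32 and 7.16 with rotenone by GE21728, and 6.67, 6.45 and 6.90 and then 6.48, 6.68 and 6.51 by GE1276969. Its probes differed in sign, 0.08 and -0.12, each with an interval that included 0.

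Two-pore channels carry the leak current that sets the resting potential. Kcnk1 (TWIK1, probe GE1272808) read 10.12, 10.15 and 10.04 with solvent and 10.10, 10.10 and 10.01 with rotenone. The 6 rats lay close together, and the difference of -0.03 had the narrowest 95% interval among the members, -0.37 to 0.31. Kcnk2 (TREK1), opened by stretch and by lipids, read 7.77, 7.15 and 7.84 with solvent and 7.30, 7.74 and 7.73 with rotenone by GE1207190. Its second probe, GE19226, read 7.50, 7.05 and 7.58 and then 7.24, 7.48 and 7.55. Both probes placed solvent rat 7 lowest and rotenone rat 16 next, so here the probes of one gene followed the same rats, and the differences were 0.00 and 0.05.

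Kcnk3 (TASK1), an acid-sensitive leak channel, read 6.26, 6.12 and 6.71 with solvent and 6.99, 5.95 and 6.38 with rotenone. Its difference of 0.08 was -0.21 without rotenone rat 16, the highest of the 6, and 0.32 without rotenone rat 13, the lowest. Kcnk6 (TWIK2) read 6.15, 6.31 and 6.32 with solvent and 6.16, 6.92 and 6.43 with rotenone, and Kcnk12 (THIK2) read 6.42, 6.30 and 6.07 and then 6.63, 6.39 and 6.28. Both overlapped between groups, with differences of 0.25 and 0.17, and both moved with single rats. The Kcnk6 difference was 0.44 without rotenone rat 16 and 0.036 without rotenone rat 13, its highest rat. For Kcnk12 it was 0.074 without rotenone rat 16 and 0.070 without solvent rat 1. In all, 5 of the 6 Kcnk probes had a higher mean in the rotenone rats, at a median of 0.06.

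Of the calcium-activated channels, Kcnn3 (SK3, probe GE20657), which carries the afterhyperpolarization of nigral dopamine neurons, read 6.23, 6.27 and 6.13 with solvent and 6.52, 6.33 and 6.13 with rotenone. Kcnn4, the intermediate-conductance channel known from blood cells and microglia, read 6.21, 6.17 and 6.35 with solvent and 6.74, 6.25 and 6.38 with rotenone. Their differences were 0.12 and 0.21, and rotenone rat 16 was the highest for both. Without that rat they were 0.024 and 0.075. Of the 9 microglial markers 4 were tested, of which 1 had a higher mean and 3 a lower one. Kcnmb1, the beta subunit of the large-conductance channel in smooth muscle, was above background in 1 solvent and 2 rotenone rats and read 5.88, 5.91 and 6.26 against 5.70, 6.60 and 6.15. Its difference of 0.13 was 0.38 without rotenone rat 16, the lowest of the 6, and -0.090 without rotenone rat 13, the highest.

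Probes of one gene often disagreed on whether the gene was seen at all. Of the 60 genes, 18 had more than 1 probe, 37 probes in all. In 4 genes (Kcnb2, Kcnj5, Kcnj11 and Kcnk2) every probe was measured, in 7 only 1 was (Kcna1, Kcnd3, Kcnh3, Kcnh6, Kcnk1, Kcnmb1 and Kcnn3) and in 7 none was (among them Kcnab1, Kcnc2, Kcnh5, Kcnk9, Kcnma1 and Kcnq3). Kcnk1 and Kcnh6 each had 1 probe above background on all 6 arrays and another on none. For Kcnk1 the probe on none, GE20774, had a net intensity of 0.143 to 9.07. For Kcnd3, probes GE20935 and GE21237 were above background on 2 arrays and 1 array, and their net intensity was at most 19.7. For these 7 genes, whether the gene was measured turned on which of its probes was read. Where the probes lie in their transcripts was not analysed here.

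**Figure D4:**
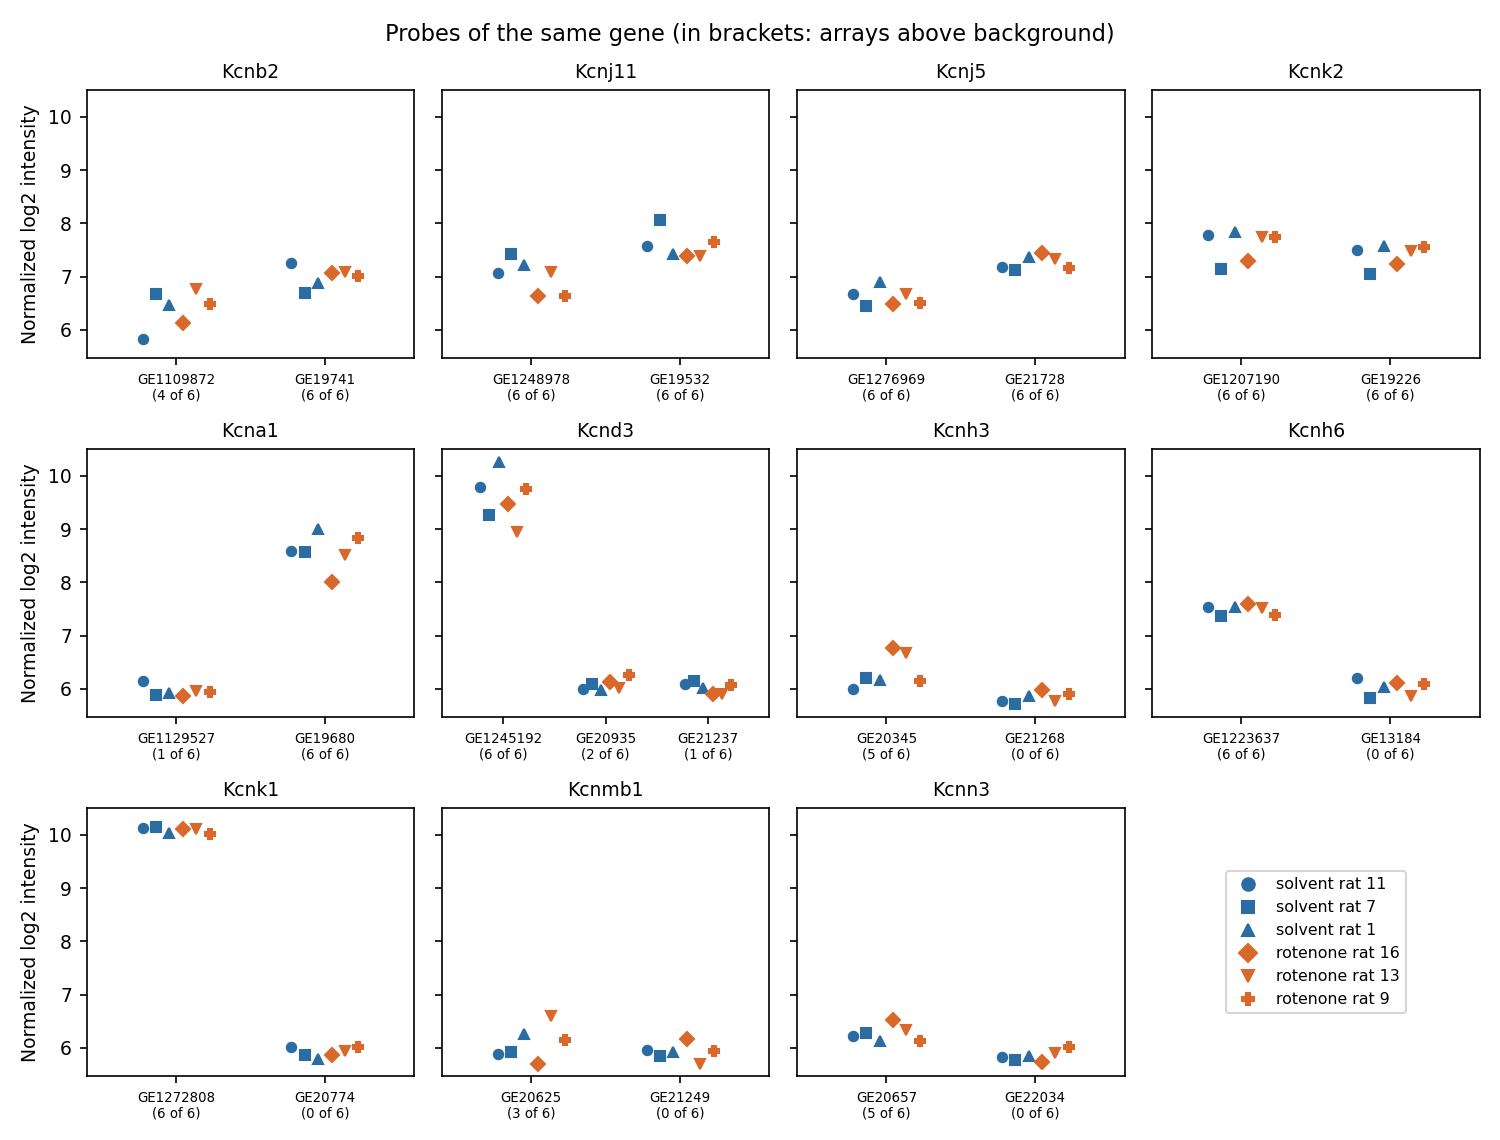
Normalized log2 intensity (vertical axis) in each rat for the 11 genes with more than 1 probe and at least 1 measured probe; each panel is a gene, each column a probe, and brackets give the arrays above background out of 6. The probes of Kcnk2 follow the same rats, those of Kcnj5 differ in sign, and the second probe of Kcnk1 stays near background in all 6 rats.

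Rotenone rat 16 set the extremes of many members. It was the highest of the 6 rats for 12 of 29 probes (41.4%), where it was so for 29.4% of all tested probes, and the lowest for 7 (24.1%), where it was so for 26.2%. Quantile normalization gives every array the same distribution, so a shift common to all probes of a rat cannot be seen in these values. Beyond that, rat 16 was not shifted as a whole for these genes. The 29 probes had a median deviation from the mean of 6 arrays of 0.01, 0.05 and 0.03 in rotenone rats 16, 13 and 9. For solvent rats 11, 7 and 1 this median was -0.00, -0.09 and 0.04. Of the smaller differences given above, leaving out rat 16 moved Kcnab2 from -0.06 to 0.045, Kcnb2 (GE1109872) from 0.13 to 0.31, Kcnh2 from -0.06 to 0.042 and Kcnh6 from 0.01 to -0.034. It moved Kcnj10 from 0.15 to 0.085, Kcnj5 (GE21728) from 0.08 to 0.012, Kcnk1 from -0.03 to -0.048 and the Kcnk2 probes from 0.00 to 0.15 and from 0.05 to 0.14. Solvent rat 7 was the lowest of the 6 by the median deviation, and without it 14 of the 29 probes were higher with rotenone.

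**Figure D5:**
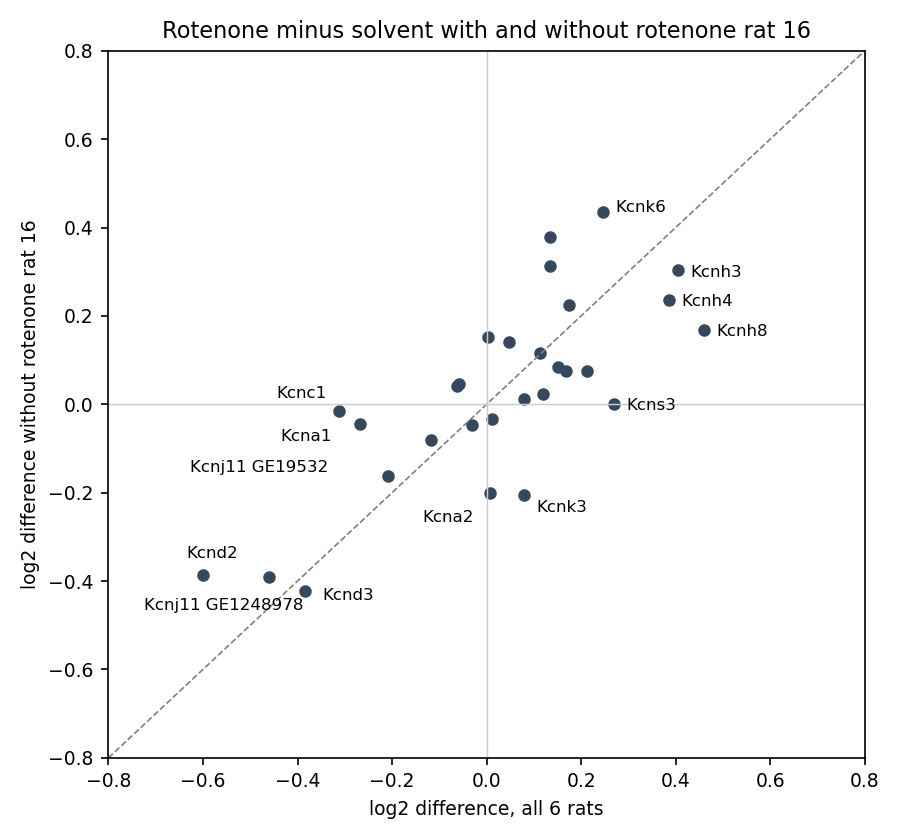
Difference between rotenone and solvent of the 29 measured probes over all 6 rats (horizontal axis) and without rotenone rat 16 (vertical axis), both in log2 units; each point is a probe and the dashed line marks equal values. Kcnd2, Kcnd3 and Kcnj11 stay below 0, Kcnh3, Kcnh4 and Kcnh8 lie closer to 0 without that rat, and Kcns3 falls to 0.00.

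Genes that work with potassium channels or handle potassium, taken as a list of 37 from textbook knowledge, were represented by 19 genes on the array (23 probes), and 14 probes of 12 genes were measured. Of these 5 were higher and 9 lower by mean, at a median of -0.10, with 0 at an adjusted p below 0.05 and 0 at an unadjusted p below 0.05 in limma. In 1 of 14 the groups did not overlap, where 9.97% of all tested probes did not overlap. This was Cntn1, an adhesion molecule of axons, which read 8.02, 8.01 and 7.87 with solvent and 7.81, 7.75 and 7.77 with rotenone. Its difference was -0.19 (SE 0.15, limma p 0.241). The calcium sensor Calm3, one of the genes for the calmodulin on which Kcnn channels depend, read 9.88, 9.96 and 9.25 with solvent and 8.99, 9.41 and 9.34 with rotenone, a difference of -0.45 (SE 0.22). These overlapped, since solvent rat 1 lay below both rotenone rats 13 and 9. Hcn4, a pacemaker channel, and Slc12a5, the neuronal potassium-chloride exporter, had differences of 0.01 and -0.00.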

How the data were processed

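RNA amplified from the laser-captured nucleus was read on 1 one-colour CodeLink array per rat, so the animal is the replicate. The deposited scanner files give, per the file headers, the linear intensity of each spot's mean and local background, their difference and a scaled value. The scanner software was not given in the sources used here. From the spot mean and background median, intensities were corrected with normexp (offset 50), put on the log2 scale and quantile-normalized, with control spots left out and every other spot kept. Probes above background on at least 3 of 6 arrays were compared between groups by a two-sided test in limma 3.58.1 under R 4.3.3. Its p values were adjusted by Benjamini-Hochberg over all 16708 of them. The script was tested on simulated data.

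Probes were named by RefSeq accession through a table of the assembly GRCr8. Values in each rat were given for probes with an unadjusted p below 0.05 or groups without overlap, and for the 10 brightest. They were also given for tested probes of a fixed list of channel genes and for genes with several probes. The remaining tested probes were added after their values were seen. The members and lists were chosen with earlier results of these data known. Alternatives covered normalization, background, filter, spot marks, array weights, variance and each rat left out. The deposited value table was an alternative too: its column for solvent rat 7 matched its scanner file for 0.898% of probes, against 100% in the other 5, so it was also put back in probe order. Some items are counted but not reported by name here. The number of arrays limits the precision.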

Additional observations from a re-analysis of the deposited data

How the results depend on the processing

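No paired analysis was possible because the rats of the groups share no numbers. Each array has its own identifier and only that of solvent rat 7 has another header date, so a block by scan was not run: it equals leaving that rat out. No alternative called a member at an adjusted p below 0.05, and 45 probes were above background on at least 1 array, 19 on all 6. An unadjusted p below 0.05 was met by 1 of 29 probes with subtraction and with array weights, Kcnj11 probe GE1248978 in both. The shares of all tested probes were 4.06% and 5.22%. Without a filter it was met by 4 of 79, where the share was 4.67%. With marked spots left out it was met by 0 of 10, where the share was 4.79%. With the value table as deposited it was met by 0 of 29, where the share was 0.443%. With a rat left out it was met by 0 to 5 of 29, where 3.33% to 8.20% of all tested probes met it. The median difference was -0.0082 with equal medians, 0.016 without a filter, 0.0062 on all 6 arrays, 0.99 with the table as deposited, and -0.0040 to 0.12 with a rat left out. Groups did not overlap for 6 of 79 probes without a filter, 0 of 10 with marked spots left out, and 5 to 8 of 29 with a rat left out. The shares over all tested probes were 10.0%, 17.1% and 16.5% to 23.5%. Partners had 1 of 14 probes at an unadjusted p below 0.05 with equal medians, where 5.61% of all tested probes met it. With a rat left out they had 0 to 1 of 14, where the share was 3.33% to 8.20%. Reversals were, with equal medians, Kcna2 -0.0082, Kcnh6 -0.10, Kcnj5 (GE21728) -0.024 and Kcnk2 -0.11 and -0.058; with cyclic loess, Kcnh6 -0.0043 and Kcnk2 (GE1207190) -0.012; with subtraction, Kcnk3 -0.063; with array weights, Kcna2 -0.13, Kcnh6 -0.020 and Kcnk3 -0.0092; with marked spots left out, Kcnb2 (GE1109872) -0.019 and Kcnk3 -0.024. With the table put back they were Kcnk1 0.092, Kcnk3 -0.10 and Kcnmb1 -0.58. As deposited, with solvent rat 7 beside the wrong probes, they were Kcna1 1.19, Kcnc1 1.66, Kcnd2 0.60, Kcnd3 2.03, Kcnh2 0.51, Kcnj11 0.39 and 0.99, Kcnj12 -0.44, Kcnj5 -0.90, Kcnk1 1.48, Kcnk12 -1.30, Kcnmb1 -1.31 and Kcnn3 -0.10. With a rat left out, signs turned for Kcna2 (-0.20 to 0.14), Kcnab2 (-0.26 to 0.045), Kcnb2 (GE1109872 -0.11 to 0.31, GE19741 -0.011 to 0.27), Kcnh2 (-0.13 to 0.042), Kcnh6 (-0.042 to 0.064), Kcnk2 (GE1207190 -0.21 to 0.15, GE19226 -0.12 to 0.15), Kcnk3 (-0.21 to 0.32) and Kcnmb1 (-0.090 to 0.38). The cause was not tested. Probes near background set only a bound.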
